A study of Mus musculus with 8 samples.

Results

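Imprinted genes were measured in notochord-derived cells (NDCs) of the mouse before birth, on embryonic day 12.5 (E12.5), and on the day of birth (P0). A list of 45 mouse genes known to be imprinted was used, 23 transcribed from the paternal copy and 22 from the maternal copy, and each gene was found in the count files through the Ensembl identifier of its symbol. The files held 44 of them, 22 of each kind, among 43346 genes in all. Peg13 was not analysed here. All animals were Shh-cre;ROSA:YFP mice, in which Cre recombinase made from the Shh locus switches on a yellow fluorescent protein (YFP) in cells that express Shh and in their descendants, and 4 litters were sequenced at each stage, each litter pooled into 1 sample. The E12.5 samples (litters NDP10.2, NPD3, NPD4 and NPD9.2) were notochords dissected whole and put straight into lysis reagent, without sorting. The P0 samples, of litters NPD26, NPD27, NPD28 and NPD30, were nucleus pulposus (NP) cells of thoracic and lumbar discs, shaken loose and sorted for YFP. Stage and way of isolation therefore cannot be told apart in any comparison between the groups.

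Genomic imprinting silences 1 parental copy of a gene through DNA methylation set down in the egg or the sperm, so that the gene is read mainly from the copy of the other parent. Imprinted genes lie in clusters that share a control region, and a long noncoding RNA in the cluster often takes part in silencing its neighbours on the same chromosome. Many of the best known members promote or restrain fetal growth, are abundant in embryonic mesenchyme and are shut down in most tissues after birth. The counts do not separate the parental copies, and the parent named beside each gene below is background knowledge, not a measurement. Some genes of the list, called tissue-restricted here, are imprinted only in certain tissues such as placenta or brain, and 13 of the 44 genes are of that kind.

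Several of the imprinted RNAs are also precursors of microRNAs, and 4 members whose RNA abundance fell between the stages enclose mature microRNAs on their own strand. H19, Igf2 and Mest each carry 1 pair of arms, and Mirg carries 26 mature sequences of 14 hairpins. The pairs within H19, Igf2 and Mest and 4 of the sequences within Mirg are printed to show what each host transcript encodes, taken from RefSeq on GRCm38.p6, 5′ to 3′, with the seed (bases 2 to 8) in capitals. Within Mirg, miR-453 and miR-496a-5p are printed because they share a seed, the sole seed shared among the 32 sequences.
miR-675-5p: uGGUGCGGaaagggcccacagu
miR-675-3p: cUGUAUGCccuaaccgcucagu
miR-483-5p: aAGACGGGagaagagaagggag
miR-483-3p: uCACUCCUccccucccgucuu
miR-335-5p: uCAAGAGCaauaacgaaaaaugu
miR-335-3p: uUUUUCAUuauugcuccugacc
miR-453: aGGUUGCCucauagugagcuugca
miR-496a-5p: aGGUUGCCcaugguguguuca
miR-134-5p: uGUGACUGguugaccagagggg
miR-410-3p: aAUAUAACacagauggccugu
The libraries measured the host transcripts, and the mature microRNAs themselves were not measured.

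ZFP57 is a zinc finger protein that binds a methylated hexamer, TGCCGC, at imprinting control regions and keeps their methylation in place during early development. The hexamer was searched for on both strands in RefSeq promoter windows of 300 bases, 250 before and 50 after each annotated start on GRCm38.p6. Of the 44 imprinted genes 34 had a window, and 12 of these had at least 1 window with the hexamer. Among all 27025 genes with a window, 3527 did. Counted by windows, 13 of 55 windows of imprinted genes held it (23.6%), and 11.6% of all 32851 windows did. Mest entered this count with overlapping windows that start at chr6:30737800 and chr6:30737803. For the imprinted genes that fell, 6 of 29 windows held the hexamer (20.7%), in 5 of 15 genes. The windows of imprinted genes held a median of 11 CG dinucleotides and all windows a median of 7, and the hexamer itself contains a CG. The genes with a match were Mest, Plagl1, Igf2, Grb10 and Nnat among those that fell, Nap1l5 among those that rose, and Copg2, Osbpl5, Zim1, Snrpn, Meg3 and Calcr. Mest and Plagl1 are printed as examples. Both are genes of the paternal copy that fell and whose windows hold the hexamer upstream of the start. Igf2 and Nnat are also genes of the paternal copy that fell and have a match, and they are not printed. The match, read on the opposite strand as GCGGCA, is in capitals. The Mest stretch lies at chr6:30737800-30738049 and holds the letters 242 and 67 bases before the start. The Plagl1 stretch lies at chr10:13090582-13090831 and holds them 90 bases before the start. Both are on the plus strand.
Mest: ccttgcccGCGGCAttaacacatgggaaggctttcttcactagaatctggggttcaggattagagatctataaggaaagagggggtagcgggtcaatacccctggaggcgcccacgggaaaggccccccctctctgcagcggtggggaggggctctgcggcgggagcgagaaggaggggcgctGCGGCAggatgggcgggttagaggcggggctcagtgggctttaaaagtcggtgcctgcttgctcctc
Plagl1: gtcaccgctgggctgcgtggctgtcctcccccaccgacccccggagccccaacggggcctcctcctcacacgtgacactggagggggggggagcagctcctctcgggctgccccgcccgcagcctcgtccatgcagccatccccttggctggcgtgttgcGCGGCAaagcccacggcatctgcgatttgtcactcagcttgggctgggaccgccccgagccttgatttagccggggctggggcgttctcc
A match describes these letters in this window and was not tested for binding or methylation.

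The depth and the purity of the libraries set what could be measured. Between 4442775 and 8904050 reads per litter were counted on genes, and another 7.07% to 17.5% of the reads tallied fell on overlapping genes and were assigned to none. A count of 0 allows up to 3 counts, which is 0.351 to 0.734 CPM (the counts of a gene scaled to the TMM-adjusted size of its library), for counting error only. Of 9 tested notochord markers, 2 fell (Shh and Foxa1) and 2 rose (Krt19 and Cd24a), T was present in all litters, and Noto, not tested, was at or near 0 at both stages. The summed level of the notochord list was 2107 to 4768 CPM at E12.5 and 2072 to 7428 CPM at P0. All 14 leukocyte markers rose, and their summed level was 67.2 to 190 CPM at E12.5 and 1149 to 9744 CPM at P0, lowest at P0 in litter NPD30. All 3 primitive erythroid markers fell, from a summed level of 8082 to 32669 CPM to 2.11 to 6.98 CPM, and the E12.5 litters NDP10.2 and NPD9.2 had the most. All 7 sclerotome markers fell (133 to 204 CPM and then 6.20 to 21.2 CPM), as did 6 of 7 tested myogenic markers (219 to 1143 CPM and 22.0 to 120 CPM) and all 6 tested markers of fetal liver (62.7 to 747 CPM and 3.12 to 4.27 CPM). All 5 tested osteoblast markers rose (30.5 to 246 CPM and 1055 to 1820 CPM), and 2 genes of that list were at 0 in every E12.5 litter. None of the 4 tested neural markers and 1 of 5 endothelial markers passed the test. These values stand beside every stage difference below, and their part in it was not tested. In bulk RNA, fewer cells of a type and less RNA per cell cannot be told apart.

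The imprinted genes as a group were less abundant at P0 compared to E12.5. They took 1.85%, 1.82%, 1.36% and 1.94% of the reads counted on genes at E12.5 (NDP10.2, NPD3, NPD4, NPD9.2) and 0.270%, 0.276%, 0.346% and 0.582% at P0 (NPD26, NPD27, NPD28, NPD30). The stages did not overlap. NPD30, the P0 litter with the fewest leukocyte and the most notochord and osteoblast marker transcripts, had the highest share at P0. Igf2 and H19 alone made up 44.4% to 57.2% of the reads on imprinted genes at E12.5 and 8.33% to 33.6% at P0. The genes of the maternal copy held 41.7% to 44.6% of those reads at E12.5 and 25.7% to 33.9% at P0. A list of 34 further imprinted genes outside the 45 did not share the fall. Its summed level was 1123 to 1404 CPM at E12.5 and 1096 to 1838.5 CPM at P0, so the stages overlapped. The median log2 fold change of its tested genes was 0.08.

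**Figure D1:**
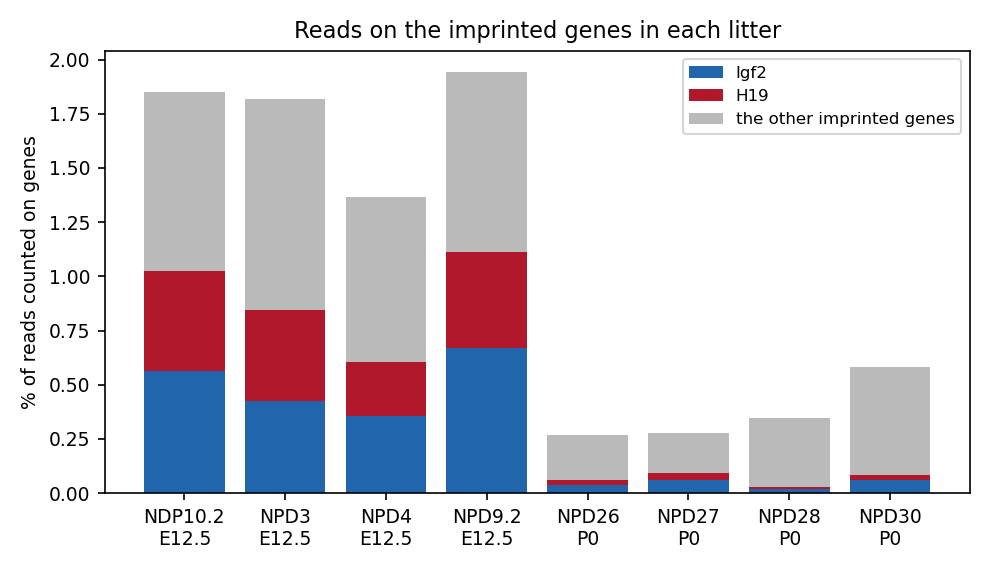
Percentage of the reads counted on genes that fell on the 44 imprinted genes in each litter, stacked as Igf2, H19 and the other imprinted genes. The E12.5 litters lie between 1.36% and 1.94% and the P0 litters between 0.270% and 0.582%.

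Of the 44 genes, 33 passed edgeR's filter on low counts and were tested, 19 of the paternal and 14 of the maternal copy. At an adjusted p under 0.05 (quasi-likelihood test, Benjamini-Hochberg adjustment over all 15467 genes tested), 19 fell and 2 rose at P0 compared to E12.5, and 12 were not past the threshold. Among all genes tested, 12.0% fell, 16.0% rose and 27.9% passed in either direction. The list was chosen with earlier results of these data known, so its shares are no test of imprinted genes against all genes. The median log2 fold change was −1.70 over the 33 imprinted genes and 0.04 over all genes tested. All 4 P0 litters lay below all 4 E12.5 litters for 19 of the imprinted genes and above them for 3, where 14.4% and 15.4% of all genes tested did so. Both parental kinds were represented, with 11 genes lower and 2 higher among 19 of the paternal copy, and 8 lower and none higher among 14 of the maternal copy. The genes imprinted broadly had 16 lower of 24 tested and the tissue-restricted genes 3 of 9. The difference between those kinds was not tested.

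**Figure D2:**
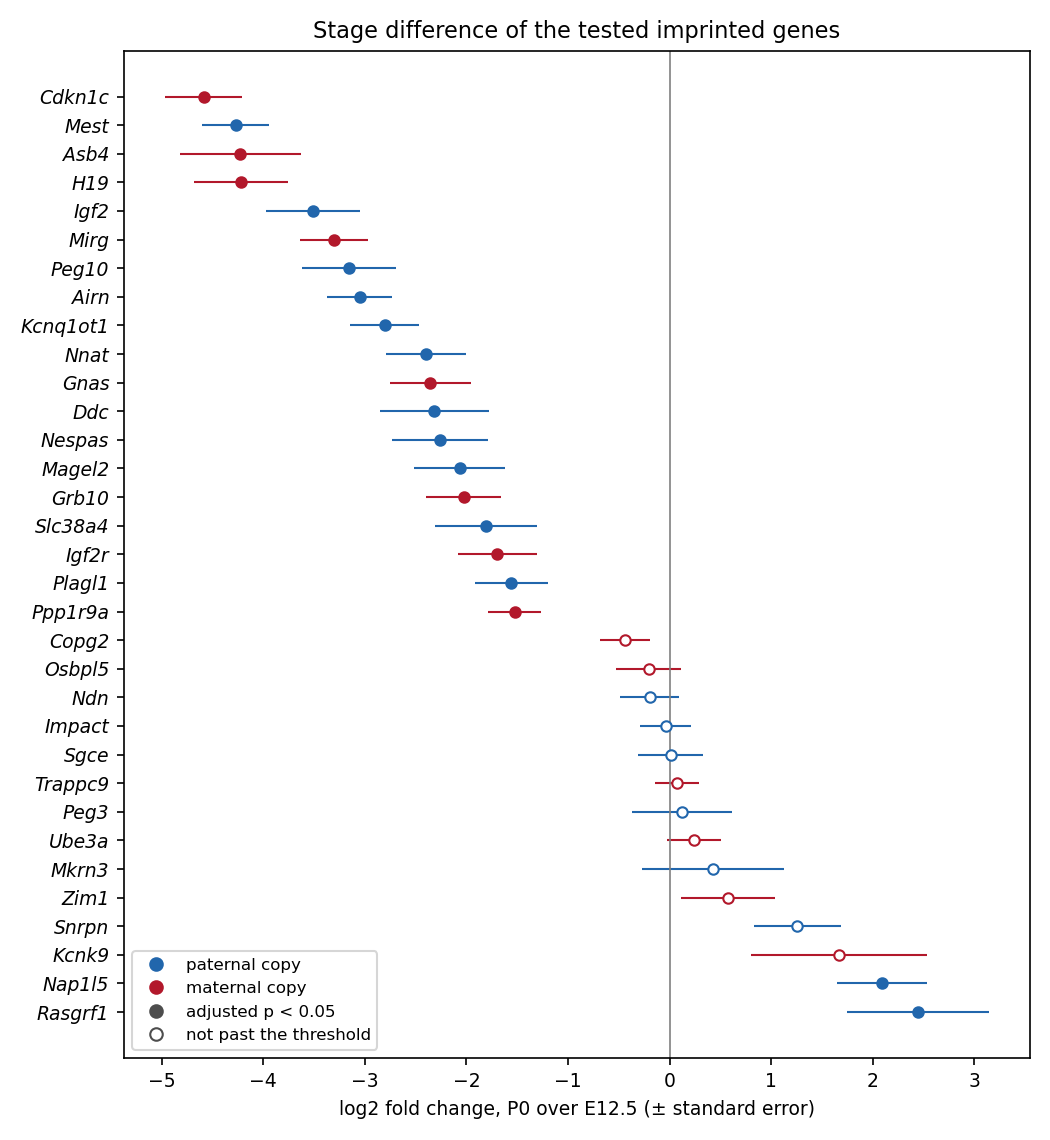
Log2 fold change, P0 over E12.5, with its standard error for each of the 33 tested imprinted genes, coloured by the parental copy that is transcribed. Filled points passed an adjusted p under 0.05, 19 to the left of 0 and 2 to the right, and genes of both parental copies occur among those to the left.

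The growth factor gene Igf2, paternal, took the most reads of the imprinted genes at E12.5. Insulin-like growth factor 2 is the main growth factor of the fetus and acts through the IGF1 and insulin receptors. Igf2 lies at chr7:142650766-142666816 on the minus strand, and H19, a noncoding RNA of the maternal copy, at chr7:142575529-142578143. Levels of Igf2 at E12.5 were 6019, 4206, 3062 and 7269 CPM and those at P0 were 388, 620, 206 and 582 CPM, with litters in the order given above here and below. The lowest E12.5 litter exceeded the highest P0 litter, and the fall was 11.4-fold (log2 fold change −3.51 ± 0.46, SE, adjusted p = 0.000522, edgeR). The authors had already reported Igf2 as lower at P0. H19 stood at 4884, 4134, 2172 and 4823 CPM and at 212, 292, 93.9 and 259 CPM, an 18.6-fold fall (−4.22 ± 0.47, adjusted p = 0.000236, edgeR). In both genes NPD4 was the lowest E12.5 litter and NPD28 the lowest P0 litter. Per kilobase of exon, H19 was the higher of the pair at E12.5, with 1627 CPM per kb against 898 for Igf2, and at P0 the values were 87.1 and 78.5 CPM per kb.

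Igf2r and Grb10, both of the maternal copy, counteract the IGF and insulin pathway, Igf2r by taking up IGF2 for degradation and Grb10 by binding the activated receptors. The authors had already reported both genes as lower at P0. Grb10 (chr11:11930508-12038683) was at 1457, 1543, 1164 and 1729 CPM at E12.5 and at 239, 216, 384 and 602 CPM at P0, a 4.08-fold fall (log2 fold change −2.03 ± 0.37, adjusted p = 0.00258, edgeR). Igf2r (chr17:12682406-12769664) was at 372, 277, 176 and 342 CPM and at 38.0, 72.6, 121 and 127 CPM (−1.70 ± 0.39, adjusted p = 0.008, edgeR). The P0 litters NPD28 and NPD30 were the highest of their stage in both genes. With NPD30 as the only P0 litter, both kept a lower level at P0 but neither passed the threshold (log2 fold change −1.24, adjusted p = 0.138 for Grb10, and −1.15, adjusted p = 0.185 for Igf2r, edgeR). Igf2r also missed it without the E12.5 litters NDP10.2 and NPD9.2 (adjusted p = 0.0878).

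Cdkn1c showed the largest fall of the imprinted genes tested by edgeR with all litters, and Asb4 fell more by limma-voom and without NPD26. It encodes p57, a cyclin-dependent kinase inhibitor of the maternal copy that makes cells leave the cell cycle, and lies at chr7:143458339-143461050. It was at 1256, 1372, 1102 and 1228 CPM at E12.5 and 51.4, 57.1, 24.1 and 73.2 CPM at P0. The E12.5 litters lay close together (1239 ± 111 CPM, SD, n = 4) and the fall was 24.0-fold (log2 fold change −4.59 ± 0.38, adjusted p = 6.36e-05, edgeR). Kcnq1ot1, the paternal antisense RNA of the same cluster that silences Cdkn1c and its neighbours in cis, was at 703, 1460, 898 and 704 CPM and at 110, 104, 175 and 148 CPM (−2.80 ± 0.34, adjusted p = 0.000354, edgeR). Both the silencing RNA and its target were thus lower in every P0 litter. Of the other members of this cluster, Osbpl5, a lipid transfer protein gene, was at 29.9 ± 11.5 CPM and 25.8 ± 7.04 CPM (SD, n = 4 each) and did not pass the threshold. Phlda2, a restrainer of placental growth, had 3 to 25 counts in each E12.5 litter and 0 to 5 in each P0 litter and was left out by the filter on low counts. With no filter it was tested and passed (log2 fold change −3.16 ± 1.01, adjusted p = 0.0185, edgeR), while its adjusted p lay between 0.0204 and 0.0596 in the 5 fits without 1 litter that kept it. Ascl2, Slc22a18 and the potassium channel gene Kcnq1 had at most 18 counts in any litter and were not tested.

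Mest and Peg10, both of the paternal copy, were lower in every P0 litter by a wide margin. Mest encodes an enzyme of the alpha/beta hydrolase family that marks embryonic mesenchyme and was at 994, 806, 524 and 995 CPM at E12.5 and at 34.0, 49.6, 34.7 and 53.0 CPM at P0. The fall was 19.3-fold (log2 fold change −4.27 ± 0.33, adjusted p = 5.27e-05, edgeR), and the P0 litters differed little among themselves. Its neighbour Copg2, a coatomer subunit gene, was at 29.6 ± 4.16 CPM and 21.7 ± 5.03 CPM and did not pass (adjusted p = 0.209). Mest and Copg2 run in opposite directions and share 912 bases of exon, 23.1% of Mest and 17.8% of Copg2, and whether the counting used strand is not given in the sources used here. Peg10, a gene derived from a retrotransposon, was at 800, 734, 379 and 702 CPM and at 33.8, 42.4, 86.8 and 130 CPM (−3.16 ± 0.46, adjusted p = 0.000855, edgeR). In the same cluster on chromosome 6, Asb4, a substrate adaptor of ubiquitin ligases, fell (−4.22 ± 0.59, adjusted p = 0.000812) from 32.7 to 64.9 CPM to 0.351 to 4.83 CPM, and Ppp1r9a, the neurabin gene, fell (−1.52 ± 0.26, adjusted p = 0.00204). Sgce, the epsilon-sarcoglycan gene next to Peg10, was at 47.6 ± 12.0 CPM and 47.8 ± 22.2 CPM, with a log2 fold change of 0.01. Calcr had 25 counts or fewer in each litter and was not tested.

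Plagl1 and Peg3 encode zinc finger transcription factors of the paternal copy, and they differed. Plagl1, a regulator of other imprinted genes, was at 464, 366, 227 and 555 CPM at E12.5 and 91.1, 108, 125 and 222 CPM at P0. The lowest E12.5 and the highest P0 litter were close, and the fall of 2.95-fold passed (log2 fold change −1.56 ± 0.36, adjusted p = 0.0081, edgeR). It was −0.81 with an adjusted p of 0.406 with NPD30 as the only P0 litter and −1.15 with an adjusted p of 0.0948 without NDP10.2 and NPD9.2. Peg3 was at 1334, 1710, 787 and 1365 CPM and at 721, 539, 1713 and 2673 CPM, so the stages overlapped (log2 fold change 0.12 ± 0.49, adjusted p = 0.881, edgeR). Per kilobase of exon its mean level was 97.5 CPM per kb at E12.5 and 106 at P0, where that of Igf2 was 78.5. Its maternal neighbour Zim1, also a zinc finger gene, was at 71.2, 74.4, 35.7 and 59.2 CPM and at 46.6, 36.2, 106 and 170 CPM (0.58 ± 0.46, adjusted p = 0.388, edgeR). Both genes followed the same order over the P0 litters, with NPD30 highest and NPD27 lowest. Grb10, which fell, and Sgce had that order as well. The summed level of the notochord list had it too at P0, 3440, 2072, 4030 and 7428 CPM. At E12.5 that sum was 4768, 4601, 2107 and 2383 CPM, an order that neither Peg3 nor Zim1 followed. The part of the notochord transcripts in the levels of Peg3 and Zim1 was not tested. Zim1 passed the threshold where NPD30 was the only P0 litter (log2 fold change 1.55, adjusted p = 0.0403). Usp29, a ubiquitin protease gene of that cluster, had at most 19 counts in any litter and was not tested.

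**Figure D3:**
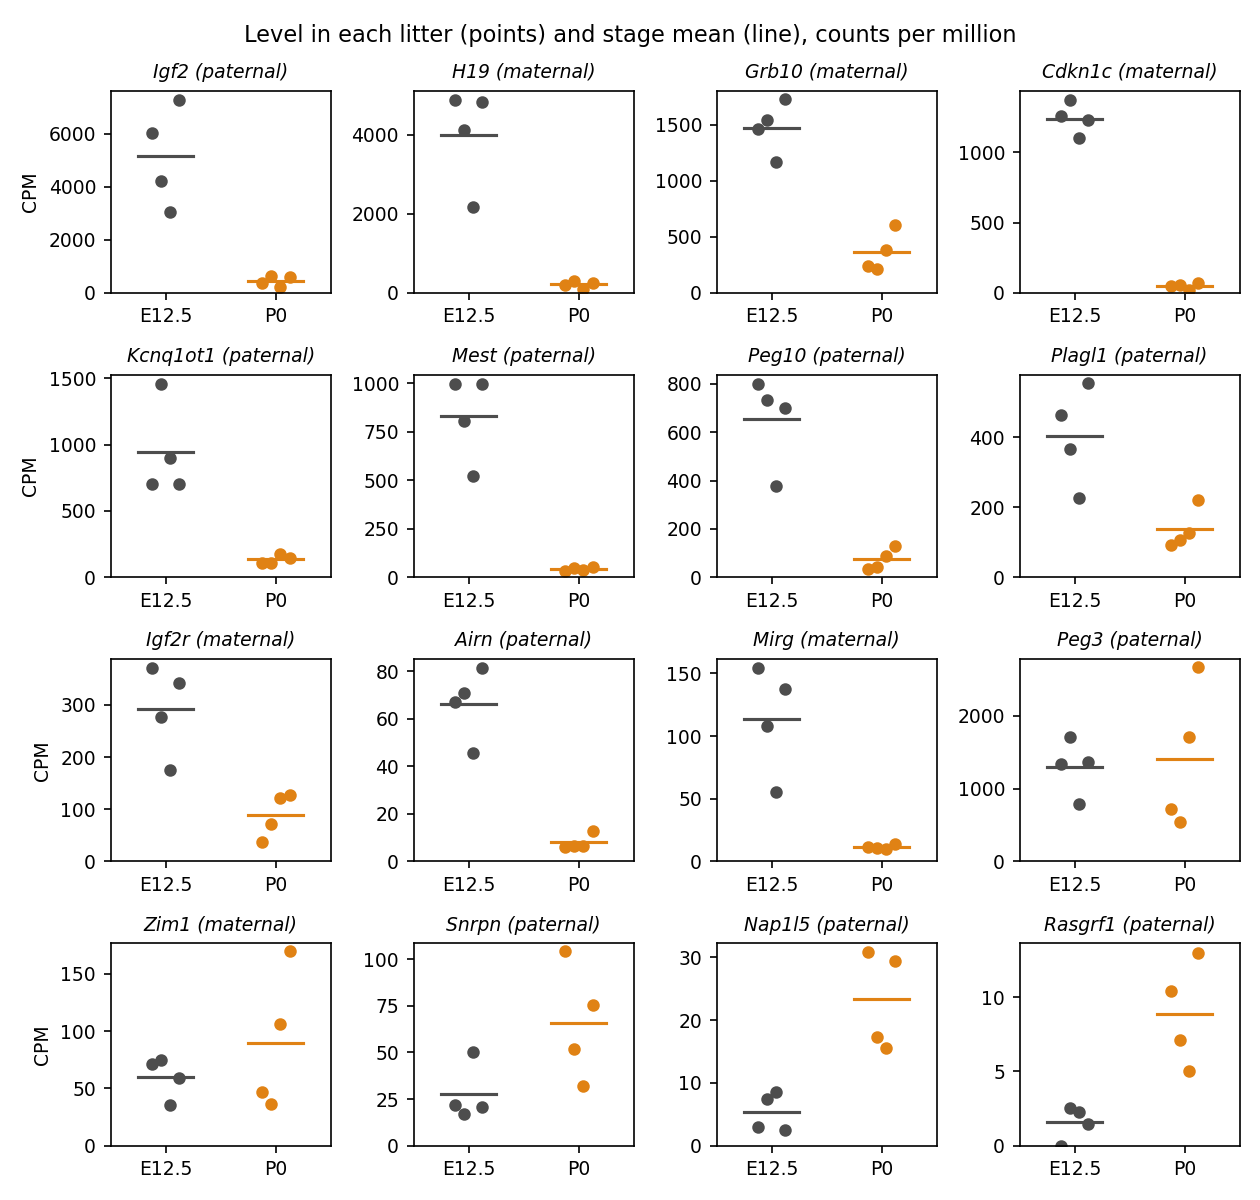
CPM of 16 imprinted genes in each litter (points) with the mean of the 4 litters of a stage (line), each panel on its own linear axis from 0. The P0 litters lie below the E12.5 litters for Igf2, H19, Grb10, Cdkn1c, Kcnq1ot1, Mest, Peg10, Plagl1, Igf2r, Airn and Mirg, overlap them for Peg3, Zim1 and Snrpn, and lie above them for Nap1l5 and Rasgrf1.

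The noncoding RNAs of the list fell wherever they could be tested. Airn, the paternal RNA antisense to Igf2r that silences it on that chromosome, was at 66.9, 70.9, 45.7 and 81.3 CPM at E12.5 and 5.92, 6.41, 6.67 and 12.8 CPM at P0 (log2 fold change −3.05 ± 0.32, adjusted p = 0.000181, edgeR). Nespas, antisense at the Gnas locus, had 22 to 34 counts in each E12.5 litter and 6 to 9 in each P0 litter (−2.26 ± 0.47, adjusted p = 0.00508). Mirg, the microRNA host, was at 154, 108, 55.3 and 138 CPM and at 11.4, 10.8, 9.71 and 14.0 CPM (−3.30 ± 0.33, adjusted p = 0.000152, edgeR). With H19 and Kcnq1ot1, 5 of 5 tested noncoding RNAs of the list fell, where 12.0% of all genes tested did.

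The remaining genes of the Dlk1-Meg3 cluster on chromosome 12 could not be read from these files. Dlk1, a delta-like membrane protein gene, and Rtl1 and Rian were listed at 0 in all 8 litters, and Meg3, a long noncoding RNA that is usually abundant, had 11 counts in all. From the start of Dlk1 to the end of Rian (chr12:109452823-109661716) 41 of 42 gene rows were at 0 in all litters. From there to the end of Mirg (chr12:109661717-109749460) 32 of 52 rows had counts, 3955 in total, 3471 at E12.5 and 484 at P0. Within that stretch the noncoding RNA B830012L14Rik had 269, 281, 224 and 197 counts at E12.5 and 26, 23, 16 and 39 at P0. The break between the empty and the filled stretch was the same at both stages. Its cause was not tested, and no statement on Dlk1, Meg3, Rtl1 or Rian is drawn from it.

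At the Gnas, Grb10 and Nnat loci the remaining tested members fell. Gnas, which encodes the stimulatory G protein alpha subunit and several other products, was at 131, 74.2, 37.9 and 157 CPM and at 19.5, 16.1, 19.9 and 22.2 CPM (log2 fold change −2.36 ± 0.40, adjusted p = 0.00185, edgeR). It shares 22.0% of its exon bases with genes of the opposite strand, and reads on such bases are assigned to no gene where strand is not used. Nnat, a small membrane protein gene active in the embryonic nervous system, was at 298, 185, 446 and 305 CPM and at 95.0, 59.7, 28.0 and 50.9 CPM (−2.40 ± 0.39, adjusted p = 0.00158, edgeR). Its highest litter, NPD4, also had the highest summed level of the neural markers, 1242 CPM against 89.1 to 140 CPM in the other E12.5 litters. The part of those transcripts in the Nnat level was not tested. Ddc, the gene of aromatic amino acid decarboxylase, was low and fell, from between 8.92 and 18.4 CPM to between 0.906 and 4.83 CPM (−2.32 ± 0.54, adjusted p = 0.00848).

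Of the 5 tested genes of the Snrpn cluster on chromosome 7, 1 passed the threshold. Magel2, a ubiquitin ligase cofactor of the MAGE family, was at 20.0, 12.6, 9.74 and 22.3 CPM and at 5.45, 3.42, 1.64 and 4.83 CPM (log2 fold change −2.07 ± 0.44, adjusted p = 0.0058, edgeR). Ndn, a MAGE family growth suppressor next to it, was at 93.3 ± 7.39 CPM and 81.3 ± 32.7 CPM and did not pass (−0.20, adjusted p = 0.66). Snrpn, which encodes the splicing protein SmN, was at 21.8, 17.1, 50.3 and 20.8 CPM and at 104, 52.0, 32.1 and 75.6 CPM, and its higher mean at P0 missed the threshold (1.26 ± 0.43, adjusted p = 0.0505, edgeR). It passed without litter NPD4, whose level overlapped those of P0 (1.73, adjusted p = 0.00844), without NPD28 (1.49, adjusted p = 0.0227) with DESeq2 (adjusted p = 0.0241), with no filter (adjusted p = 0.0103) and with 10 counts required in every litter (adjusted p = 0.0427). NPD4 is the litter with the high neural marker sum. Snrpn shares 27.3% of its exon bases with genes of the same strand, Gm38393 and Snurf. Reads on such bases are assigned to no gene whether or not strand is used. Ube3a, the ubiquitin ligase gene that is imprinted in neurons, was at 71.3 ± 22.0 CPM and 84.3 ± 18.4 CPM (0.24, adjusted p = 0.536), and Mkrn3, a RING finger gene, at 4.51 ± 3.37 CPM and 6.24 ± 5.20 CPM (0.43, adjusted p = 0.688).

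The genes that rose at P0 were Nap1l5 and Rasgrf1, both of the paternal copy and both low. Nap1l5, a gene related to nucleosome assembly proteins (chr6:58905233-58907076), was at 3.05, 7.38, 8.54 and 2.45 CPM at E12.5 and at 30.8, 17.4, 15.6 and 29.4 CPM at P0, 4.27-fold higher (log2 fold change 2.09 ± 0.45, adjusted p = 0.00553, edgeR). Rasgrf1, a guanine nucleotide exchange factor for Ras (chr9:89909908-90026977) had 0, 13, 19 and 6 counts at E12.5 and 67, 50, 43 and 86 at P0 (2.45 ± 0.70, adjusted p = 0.0229, edgeR). The P0 litters lay above all E12.5 litters for both. The Rasgrf1 call was lost, with adjusted p between 0.0517 and 0.0629, in 3 of the 8 fits that leave out 1 litter, namely NPD9.2, NPD26 or NPD30, and it was lost without NDP10.2 and NPD9.2 together (adjusted p = 0.0556). Kcnk9, a potassium channel gene, also had all P0 litters above all E12.5 litters, but on 22 counts or fewer per litter, and did not pass (1.67 ± 0.87, adjusted p = 0.18).

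Among single genes outside these clusters, Slc38a4, an amino acid transporter gene of the paternal copy, was at 122, 131, 54.0 and 87.9 CPM and at 22.1, 7.83, 31.0 and 51.8 CPM. It passed (log2 fold change −1.81 ± 0.50, adjusted p = 0.0214, edgeR), although the highest P0 litter, NPD30, nearly reached the lowest E12.5 litter. The call was lost in 3 of 8 fits that leave out 1 litter, namely NDP10.2, NPD3 or NPD26, with adjusted p up to 0.0651, and without NDP10.2 and NPD9.2 together (adjusted p = 0.108) or with no filter on low counts (adjusted p = 0.067). Impact, whose product restrains the kinase Gcn2, was at 58.5 ± 14.0 CPM and 56.9 ± 13.1 CPM (−0.04, adjusted p = 0.931), and Trappc9, a vesicle trafficking gene, at 22.0 ± 0.688 CPM and 23.1 ± 2.64 CPM (0.07, adjusted p = 0.838). Their stages overlapped. Slc22a3, an organic cation transporter gene next to Igf2r, had at most 22 counts in any litter and was not tested.

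Ratios between neighbours within a library do not depend on how libraries are scaled, and 8 of 12 listed pairs had enough counts. Each was compared by a two-sided exact permutation test over the 4 E12.5 and 4 P0 litters, with the two-sided p taken as double the smaller one-sided p and 0.0286 its smallest value, with adjustment over the 8 pairs. In 6 pairs the stages did not overlap (p = 0.0286, adjusted p = 0.0381 for each, exact permutation test). Any pair without overlap reaches that smallest p. Ratios of other neighbouring genes were not examined, so how often they separate is not known here. For Mest over Copg2 and Peg10 over Sgce the ratio restates that the first gene fell and the second did not pass the threshold. Mest over Copg2 had a log2 ratio of 4.77 ± 0.32 at E12.5 and 0.97 ± 0.54 at P0 (SD, n = 4 each), and Peg10 over Sgce 3.75 ± 0.50 and 0.51 ± 0.45. The Igf2 over H19 ratio was 0.35 ± 0.25 and 1.07 ± 0.13, so H19 fell by more than Igf2 did. Cdkn1c over Kcnq1ot1 went from 0.46 ± 0.44 to −1.46 ± 0.94, with the lowest value, −2.86, in NPD28. Igf2r over Airn went the other way, from 2.11 ± 0.25 to 3.41 ± 0.62, so that the antisense RNA fell by more than the gene it overlaps. Peg3 over Zim1 had the tightest values at P0, 4.43 ± 0.14 and then 3.96 ± 0.05, although both levels spread widely over the P0 litters. Ube3a over Snrpn (1.46 ± 0.45 and 0.46 ± 0.98, p = 0.114, adjusted p = 0.131, exact permutation test) and Gnas over Nespas (4.06 ± 0.71 and 4.13 ± 0.56, p = 0.886, exact permutation test) had stages that overlapped. Gnas and Nespas share 988 bases of exon on opposite strands, 38.5% of the Nespas exon bases being shared with other genes. Of the Snrpn exon bases 27.3% are shared with genes of the same strand, and of the Ube3a exon bases 8.74% with a gene of the opposite strand.

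**Figure D4:**
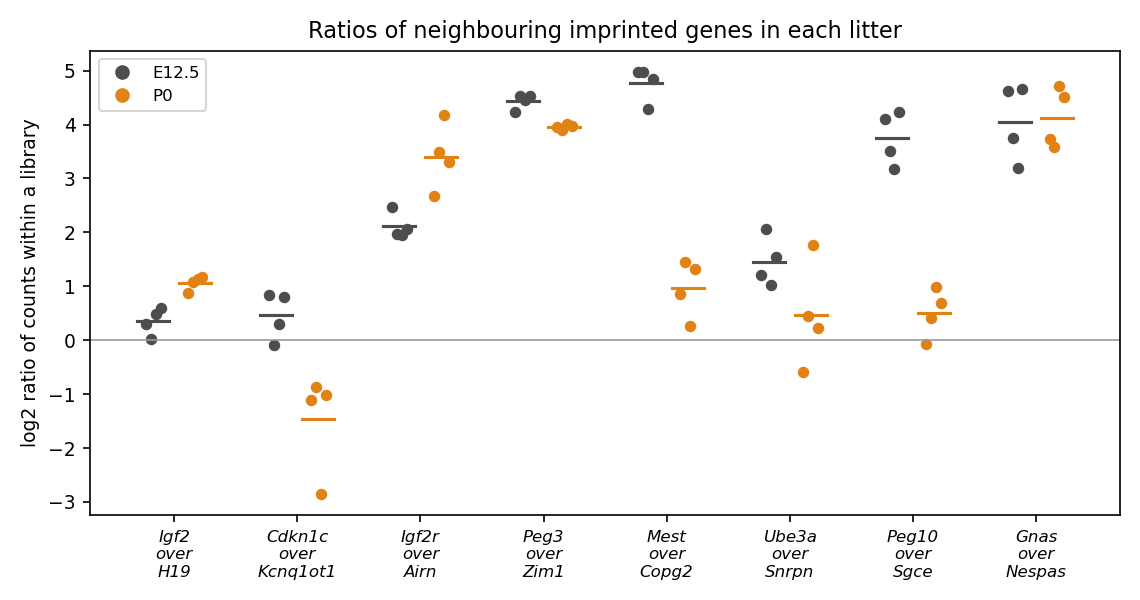
Log2 ratio of the counts of neighbouring imprinted genes in each litter (points) with the stage mean (line). The stages are apart in 6 of the 8 pairs, with the widest separation for Mest over Copg2 and Peg10 over Sgce, and overlap for Ube3a over Snrpn and Gnas over Nespas.

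The P0 litters differed in their leukocyte transcripts, and NPD30 had the fewest, 1149 CPM against 5147 to 9744 CPM. It also had the highest summed level at P0 of the notochord list, 7428 CPM against 2072 to 4030 CPM. The same held for the osteoblast list, with 1820 CPM against 1055 to 1152 CPM. A comparison with NPD30 alone therefore differs in more than leukocyte transcripts. NPD30 was also set against the 4 E12.5 litters as the only P0 litter, a choice made after seeing the data. The lone sample is there assumed to vary like the other group. NPD30 lay lower for each of the 19 genes that fell, which follows from their choice. All P0 litters, NPD30 included, lay below all E12.5 litters for these genes. Their median log2 fold change was −2.44 there and −2.40 with all P0 litters. Cdkn1c (−4.04), Asb4 (−3.98), Mest (−3.92) and H19 (−3.90) kept the largest falls among these 19 genes in NPD30, and Ddc (−3.67) joined them. Phlda2, left out of the main fit by the filter on low counts, was at −3.97 there, a value that rests on 1 count in NPD30. No longer past the threshold were Plagl1 (−0.81), Slc38a4 (−0.88), Igf2r (−1.15), Grb10 (−1.24), Magel2 (−1.68) and Gnas (−2.10), nearer to 0 than with all P0 litters, and Ppp1r9a (−1.65) and Nespas (−2.44), farther from 0. Of the genes that rose, neither passed there, with Nap1l5 at 2.45 (adjusted p = 0.0552, edgeR) and Rasgrf1 at 3.02 (adjusted p = 0.12, edgeR), and the sole higher call was Zim1. In that single-litter comparison 2.46% of all genes tested fell and 6.15% passed in either direction. Of the 19 genes, 18 passed in each of the 8 fits that leave out 1 litter in turn.

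**Figure D5:**
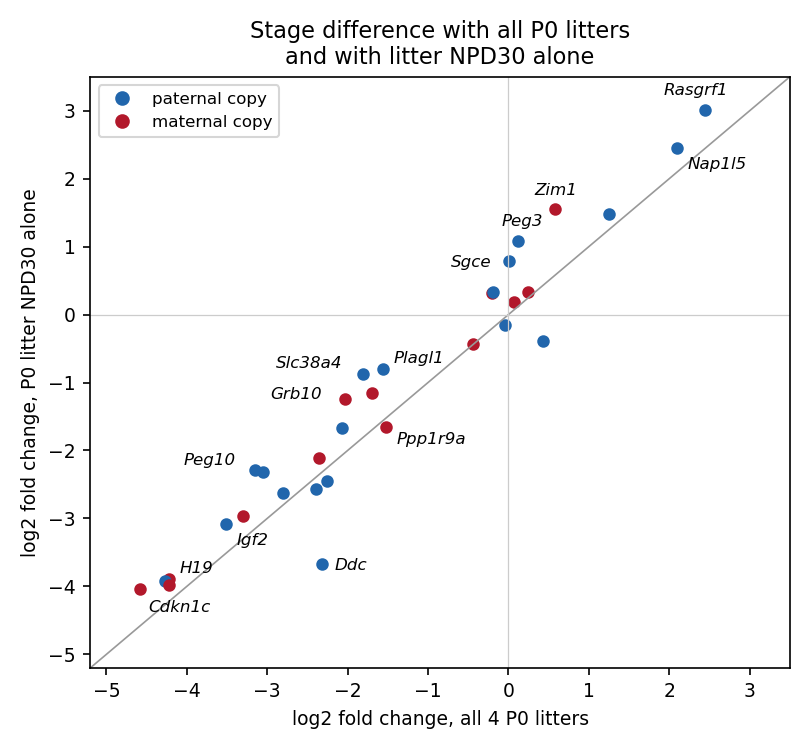
Log2 fold change of 32 imprinted genes with all 4 P0 litters (horizontal axis) and with litter NPD30 as the only P0 litter (vertical axis), with the line of equal values. The 19 genes that fell lie below 0 on both axes, which their choice fixes, and Plagl1, Slc38a4 and Grb10 lie above the line, nearer to 0 in NPD30.

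Of 18 tested genes in a list of factors that set or keep imprints, 2 fell (11.1%) and 1 rose (5.56%), beside 12.0% and 16.0% of all genes tested. The gene of ZFP57, whose hexamer is marked in the Mest and Plagl1 promoters, was among them, at 91.4, 88.8, 82.0 and 85.2 CPM at E12.5 and 17.1, 6.98, 7.84 and 10.6 CPM at P0 (log2 fold change −3.03 ± 0.30, adjusted p = 0.000148, edgeR). The E12.5 litters were nearly equal and all P0 litters lay far below them. Tet3, a methylcytosine dioxygenase gene, fell (−0.77, adjusted p = 0.0435) and Arid4a, a chromatin protein gene, rose (1.15, adjusted p = 0.0268). Trim28, the corepressor that ZFP57 recruits (−0.65, adjusted p = 0.0739), and Dnmt1, the maintenance methyltransferase (−0.53, adjusted p = 0.0977), did not pass.

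In a list of 9 genes that act on Igf2 or its product, bind it or lie beside it, 6 fell and none rose, beside 12.0% and 16.0% of all genes tested. The authors had already reported these 6, and also Igf2, Grb10 and Igf2r, as lower at P0. The list was chosen with earlier results known. Its share is therefore no test of the group against all genes. The RNA-binding proteins Igf2bp1 (−3.22) and Igf2bp2 (−3.68), which bind Igf2 mRNA, fell, and Igf2bp3 fell by 0.90 on the log2 scale. Igf2bp1 was at 194, 166, 145 and 207 CPM at E12.5 and 17.4, 13.8, 22.0 and 22.6 CPM at P0. The IGF binding proteins of the list, Igfbp5 (−3.77) and Igfbp2 (−1.65), also fell, and so did Igf2os (−3.44), the antisense partner of Igf2, whose reads cannot be told apart from those of Igf2 on 98 shared exon bases if strand was not used. The receptors Igf1r (−0.62, adjusted p = 0.357) and Insr (−0.29, adjusted p = 0.434), which bind IGF2, and Mrpl23 (−0.25), a ribosomal protein gene next to H19, did not pass. The list holds only 2 of the IGF binding proteins. Over Igfbp1 to Igfbp7, added after their values were seen, 6 were tested, of which 3 fell, with Igfbp3 (−2.40) beside those 2, and 2 rose, Igfbp6 (3.40) and Igfbp7 (3.40), while Igfbp4 (−0.66) did not pass. All were tested by edgeR with adjustment over all genes.

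Of 29 tested genes in a list of further imprinted genes outside the 45, 4 fell and 3 rose, 13.8% and 10.3%, beside 12.0% and 16.0% of all genes tested. Those that fell were Peg12 (−3.30), Zdbf2 (−3.01), Begain (−1.89) and Gab1 (−0.71), and those that rose were Pon3 (1.93), Tspan32 (1.80) and Pon2 (1.35). Zdbf2, a paternally expressed zinc finger gene, was at 71.4, 112, 72.4 and 112 CPM at E12.5 and 7.94, 9.12, 7.14 and 21.4 CPM at P0. Pon2 and Pon3, paraoxonase genes of the Peg10 cluster, lay above all E12.5 litters in all P0 litters, while Peg10 and Asb4 of the same cluster lay below.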

How the data were processed

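RNA was sequenced from 4 litters of NDCs at E12.5 and 4 at P0. The authors aligned single-end reads with STAR 2.4.0j to GRCm38.p3, assigned them to Gencode M4 genes with HTSeq and deposited raw counts, 1 per gene and litter, from libraries made with the TotalScript kit. Symbols were matched for 42462 of 43346 identifiers. Positions and exon overlaps are from Gencode M21 on GRCm38, a later annotation. In R 4.3.3, edgeR 4.0.16 was used with TMM scaling, filterByExpr (minimum count 10, minimum total 15), robust dispersions and the quasi-likelihood test over all genes, and levels are CPM on TMM-scaled library sizes. The standard error is the size of the log2 fold change divided by the square root of F. Ratios add 0.5 to each count. DESeq2 1.42.0, limma 3.58.1 (voom), other scalings and filters, and litters left out served as alternatives. The members, the lists and their groups were chosen with earlier results of these data known. Every member is described, and of the further lists those past an adjusted p of 0.05 and the 5 largest changes are named.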

Additional observations from a re-analysis of the deposited data

Results flagged for a closer look

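A litter far from the others of its stage, by Dixon's test at the 95% level, was found in 2 of 66 groups of 4 litters examined over the tested imprinted genes, where chance flags about 1 in 20 groups. Ndn was at 82.4 CPM in the E12.5 litter NPD3 and at 96.0 to 98.7 CPM in the other E12.5 litters. Airn was at 12.8 CPM in the P0 litter NPD30 and at 5.92 to 6.67 CPM in the other P0 litters.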

How the results depend on the processing

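No imprinted gene that passed the threshold changed direction under the alternatives run. DESeq2 size factors, upper quartile scaling, limma-voom and leaving out mitochondrial and globin genes kept 19 lower and 2 higher, and upper quartile scaling moved the median log2 fold change of all genes by −0.15, so that 47.5% rather than 57.1% of all calls were higher. DESeq2's Wald test and no filter each gave 3 higher, and requiring 10 counts in every litter left 27 genes tested with 16 lower and 2 higher. Without NDP10.2 and NPD9.2, 14 genes were lower, 7 of the paternal copy, 1 was higher, and 2581 of all genes were called against 4321. Plagl1 (−1.15), Ddc (−2.18), Magel2 (−1.58), Igf2r (−1.37), Slc38a4 (−1.74) and Rasgrf1 (1.85) were no longer past the threshold there, each in its direction and with fewer litters in the fit. With NPD30 as the sole P0 litter, chosen after seeing the data, 12 were called, 11 lower (7 paternal, 4 maternal) and 1 higher (Zim1, while Nap1l5 and Rasgrf1 were not past the threshold), with 1054 of all genes called; 1 sample then stands for P0. Leaving out 1 litter at a time gave 18 to 20 lower and 1 to 3 higher, with 34 to 37 imprinted genes tested. In those fits 9.46% to 12.0% of all genes tested fell and 22.6% to 28.1% passed in either direction. No paired analysis was possible because the labels number no litters across the stages. With 3 litters against 4, the exact test of the ratios, a doubled one-sided p, cannot go below 0.0571. Depth limits the genes with few counts per litter, and of the 11 imprinted genes left out by the filter 8 had counts and were tested without it, where Phlda2 passed (lower) and 7 did not.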
